A study of Mus musculus with 6 samples.

Results

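The tetraspanins described here are 10 genes of 12780 compared: Cd81, Cd82, Cd9, Cd37, Cd53, Cd63, Cd151, Tspan3, Tspan13 and Tspan14. They were found by gene symbol in the platform annotation, each through 1 probe set, and all 10 were in the deposited table. The group, led by Cd81 and Cd82, was chosen from the measured differences between stimulated and unstimulated cells in these same arrays. Those differences are therefore given as a description and support nothing by themselves. The 10 genes were measured in type 1 conventional dendritic cells (cDC1), which take up material from other cells and present it to CD8 T cells. The study set 3 arrays of anti-CD40 stimulated cells beside 3 arrays of unstimulated cells. Both groups were migratory cDC1 sorted from skin draining lymph nodes of WT C57BL/6 mice by the gate B220-, CD326-, MHC II high, CD11c int, XCR1+, Sirpa- and CD40+. The labels leave out age, dose, duration and whether the antibody acted in the animal or in culture. They call the replicates biological but name no separate mice behind them. The p-values therefore measure only the spread among these 6 arrays, part of which may be technical.

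Tetraspanins are small proteins that cross the membrane 4 times and carry a large extracellular loop with a conserved pair of cysteines. They bind one another and partners such as integrins, immunoglobulin superfamily proteins, proteases and MHC molecules, and so gather these into patches of the membrane. In leukocytes they are known for roles in antigen receptor complexes, adhesion, migration, endosomal sorting and vesicle release. CD40 is the receptor that CD40 ligand on helper T cells engages to activate dendritic cells, and anti-CD40 antibody stands in for that ligand.

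The upstream sequence of 3 members is shown: Cd81 and Cd82, which had the largest differences, and Tspan14, which had the most matches of the motif marked below. These members were picked after the differences were known. Each run is the 250 bases before the first start site of the gene in the RefSeq table (build GRCm38.p6), read 5′ to 3′ on the strand of the gene. Cd81 lies at chr7:143052500-143052749 on the plus strand, Cd82 at chr2:93462951-93463200 on the minus strand and Tspan14 at chr14:40966897-40967146 on the minus strand. Capitals mark the GC box, GGGCGG on the printed strand or its reverse complement.
Cd81: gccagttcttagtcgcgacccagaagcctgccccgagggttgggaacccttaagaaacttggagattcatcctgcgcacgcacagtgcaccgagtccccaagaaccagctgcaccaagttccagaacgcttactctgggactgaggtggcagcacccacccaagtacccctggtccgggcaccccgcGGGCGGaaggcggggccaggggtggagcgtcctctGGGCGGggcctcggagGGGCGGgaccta
Cd82: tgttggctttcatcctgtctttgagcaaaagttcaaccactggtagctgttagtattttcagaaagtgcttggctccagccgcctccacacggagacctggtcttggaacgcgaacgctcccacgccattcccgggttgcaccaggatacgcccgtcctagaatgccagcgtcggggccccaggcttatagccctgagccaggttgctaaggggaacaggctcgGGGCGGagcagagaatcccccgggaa
Tspan14: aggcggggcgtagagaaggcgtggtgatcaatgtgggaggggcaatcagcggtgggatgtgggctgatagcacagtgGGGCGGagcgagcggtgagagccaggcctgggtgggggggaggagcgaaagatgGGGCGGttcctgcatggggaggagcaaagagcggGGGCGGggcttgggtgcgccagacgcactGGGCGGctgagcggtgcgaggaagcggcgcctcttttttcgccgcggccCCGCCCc

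The GC box occurred 3 times before Cd81, 1 time before this start site of Cd82 and 5 times before Tspan14. It was also found before Cd9, Cd37, Cd151 and Tspan13. All 10 members matched the table, with 15 start sites in all, and 8 of these 15 windows held a GC box on either strand, against 32.7% of all 32851 windows of the same length. The windows were also searched for 5 other motifs on both strands. The NF-kB consensus was found in 1 of the 15 windows, at the second start site of Cd151, against 7.25% of all windows. An E-box, CACGTG, was found in 1 window, that of Cd37, against 6.02% of all windows. TATAAA (12.4% of all windows), the AP-1 motif TGANTCA (6.75%) and the interferon-stimulated response element, ISRE (2.98%), were found in 0 of the 15 windows. These matches only describe the letters in these windows. No deposited value here measures binding.

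Cd81 and Cd82 stood far apart from the other 8 members in stimulated against unstimulated cells. CD81 partners with integrins and immunoglobulin superfamily proteins. Cd81 had log2 intensities of 9.74, 9.28 and 9.95 in the 3 stimulated arrays, against 7.94, 7.51 and 7.42 in the 3 unstimulated arrays. Every stimulated array lay above every unstimulated one, and 1.35 log2 units separated the lowest stimulated array from the highest unstimulated array. The mean was 9.66 ± 0.34 in stimulated cells and 7.62 ± 0.28 in unstimulated cells (SD, n = 3 each), a log2 difference of 2.04 ± 0.24 (SE) or 4.10-fold (95% interval 2.79 to 6.04). The difference was about as large when any 1 array was left out, from 1.89 to 2.22.

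CD82 restrains the migration of mouse dendritic cells and favours stable contact with T cells in studies of knockout mice. Cd82 had log2 intensities of 9.75, 7.95 and 9.26 in stimulated arrays, against 7.08, 5.01 and 6.02 in unstimulated arrays. The groups did not overlap, but the arrays within each group spread widely, with replicate 1 highest and replicate 2 lowest in both. The mean was 8.99 ± 0.93 in stimulated cells and 6.04 ± 1.04 in unstimulated cells (SD, n = 3 each), a log2 difference of 2.95 ± 0.62 (SE) or 7.73-fold (95% interval 2.84 to 21.1). Only 1 of the 12780 genes had a larger positive difference than Cd82, while 7 had a larger one than Cd81. Leaving out 1 array gave 2.44 without unstimulated replicate 2 and 3.47 without unstimulated replicate 1 as the extremes.

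**Figure D1:**
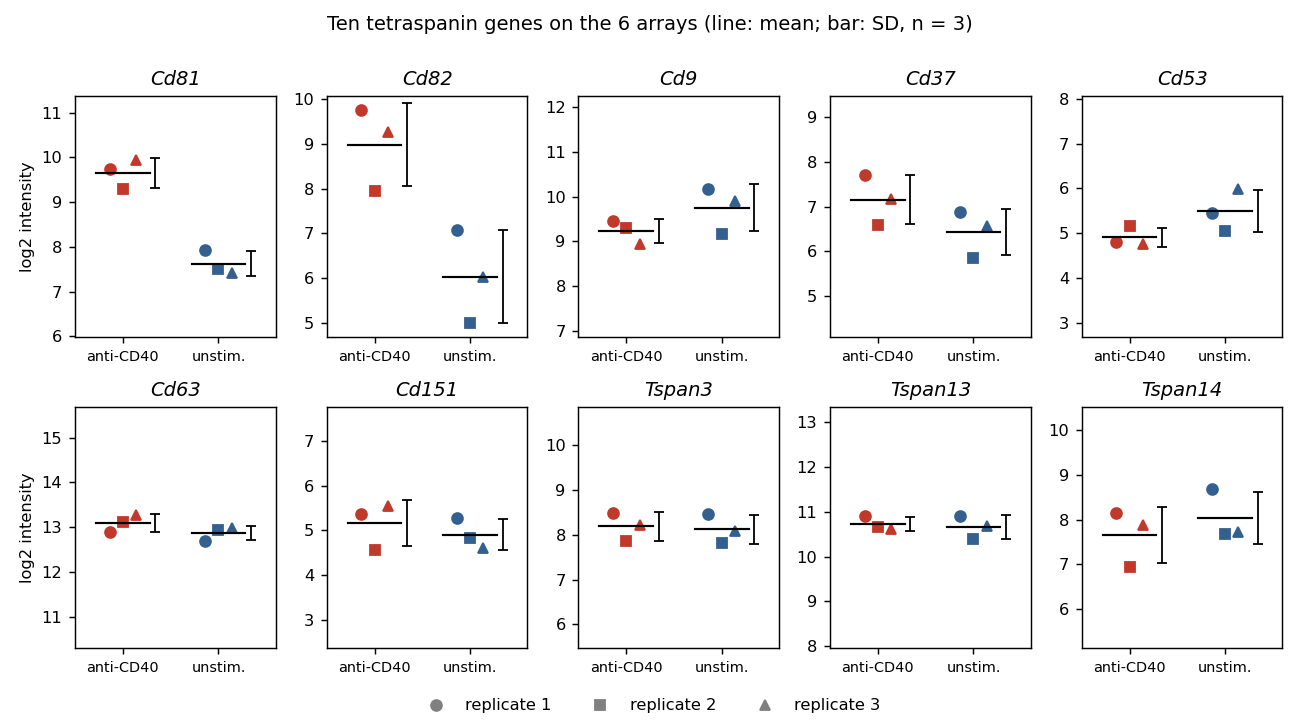
Log2 intensity (vertical axis, each panel spanning the same number of log2 units around its own values) of the 10 tetraspanin genes in 3 anti-CD40 stimulated arrays (red, left) and 3 unstimulated arrays (blue, right). Marker shapes give the replicate number, lines the mean and bars the SD. The stimulated points of Cd81 and Cd82 lie above all their unstimulated points, whereas the groups overlap in the other 8 panels.

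In the limma fit over all genes, 0 of the 10 members passed an adjusted p under 0.05 in either direction, against 0.0156% of all genes called higher in stimulated cells and 0% called lower. At an unadjusted p under 0.05, 2 members (Cd81 and Cd82) were higher and 0 lower, against 2.07% of all genes higher and 1.42% lower. The groups did not overlap for the same 2 members, with stimulated arrays above, against 3.68% of all genes in that direction and 3.46% in the other. Because the members were chosen on this contrast, nothing is read from these counts. Some refits moved the call: Cd81 and Cd82 passed the adjusted threshold under array weights and under a replicate block. Cd81 alone passed it under quantile normalisation or centring on array medians. The block treats equal replicate numbers as pairs, which the labels do not state. The median log2 difference of the 10 members was 0.15, against 0.005 over all genes, with 7 positive and 3 negative values, but it was -0.15, with 4 positive and 6 negative, when arrays were scaled to 1 median and spread.

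Cd37 and Cd53, which are largely restricted to leukocytes, had differences of opposite sign. CD37 is needed for normal migration of dendritic cells in mice. Cd37 had log2 intensities of 7.70, 6.59 and 7.18 in stimulated arrays, against 6.87, 5.86 and 6.56 in unstimulated arrays. Stimulated replicate 2 lay below unstimulated replicate 1, so the groups overlapped. The log2 difference was 0.73 ± 0.36 (SE; 95% interval -0.11 to 1.56), and it stayed positive in all 18 refits, from 0.44 to 1.01. Refits that changed only the variance model, gene filter, probe set rule or replicate block could not change the difference of any member. Cd53, whose product takes part in leukocyte adhesion and signalling, had log2 intensities of 4.81, 5.16 and 4.77 in stimulated arrays, against 5.46, 5.05 and 5.98 in unstimulated arrays. Of the 3 stimulated values, 2 lay below all unstimulated values, and stimulated replicate 2 did not. Its log2 difference was -0.59 ± 0.26 (SE; 95% interval -1.21 to 0.03), and its mean intensity was at percentile 34.3 of all genes. The intervals of Cd37 and Cd53 both held 0, so the opposite signs were not resolved.

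CD9, a close relative of CD81, associates with MHC class II molecules on dendritic cells and with integrins. Cd9 had log2 intensities of 9.47, 9.30 and 8.94 in stimulated arrays, against 10.18, 9.16 and 9.91 in unstimulated arrays. Unstimulated replicate 2 lay among the stimulated arrays and the other unstimulated arrays lay above them. The log2 difference was -0.52 ± 0.29 (SE; 95% interval -1.20 to 0.17), negative in all 18 refits, from -0.84 to -0.29. The log2 differences of Cd9 and Cd81 thus had opposite signs in these arrays. RefSeq lists a pseudogene named for Cd9 and another for Cd63, and whether their transcripts contribute to these probe sets was not tested.

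Cd63, which encodes a tetraspanin of late endosomes, lysosomes and released vesicles, differed little between the groups. It had log2 intensities of 12.89, 13.12 and 13.28 in stimulated arrays, against 12.70, 12.93 and 12.99 in unstimulated arrays. The groups overlapped, and the log2 difference was 0.22 ± 0.18 (SE; 95% interval -0.20 to 0.65), turning to -0.19 when arrays were scaled to 1 median and spread. Increases above 1.56-fold lie outside this interval, but the bound holds for this fit only. Under that scaling the SE was 0.74. The mean intensity of Cd63 was at percentile 99.9 of all genes, and any flattening of the signal at such brightness was not tested.

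Tspan13 and Tspan3 had the smallest differences. Tspan13 had log2 intensities of 10.91, 10.67 and 10.61 in stimulated arrays, against 10.90, 10.38 and 10.68 in unstimulated arrays, a log2 difference of 0.07 ± 0.20 (SE; 95% interval -0.38 to 0.53). Tspan3 had 8.50, 7.86 and 8.22 in stimulated arrays, against 8.46, 7.83 and 8.08 in unstimulated arrays, a log2 difference of 0.07 ± 0.24 (SE; 95% interval -0.50 to 0.64). For both genes the arrays of the groups interleaved, and the sign of the difference changed in 5 of 18 refits for Tspan13 and in 4 for Tspan3, the scaling to 1 median and spread among them. The upper limits of these intervals are 1.45-fold for Tspan13 and 1.55-fold for Tspan3, so larger increases lie outside them. These limits hold for this fit only, and the SE of Tspan13 was 0.40 under that scaling.

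CD151 binds the laminin-binding integrins, and TSPAN14 belongs to the subgroup with 8 cysteines in the large loop (TspanC8), which carries the protease ADAM10 to the cell surface. Cd151 had log2 intensities of 5.37, 4.57 and 5.55 in stimulated arrays, against 5.29, 4.83 and 4.60 in unstimulated arrays, a log2 difference of 0.26 ± 0.31 (SE; 95% interval -0.46 to 0.97). Tspan14 had 8.15, 6.95 and 7.89 in stimulated arrays, against 8.70, 7.69 and 7.73 in unstimulated arrays, a log2 difference of -0.38 ± 0.39 (SE; 95% interval -1.30 to 0.54). Both pairs of groups overlapped, and the mean intensity of Cd151 was at percentile 28.5 of all genes. As a fold the interval of Tspan14 ran from 0.406 to 1.46, so its direction was not resolved with 3 arrays a group.

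**Figure D2:**
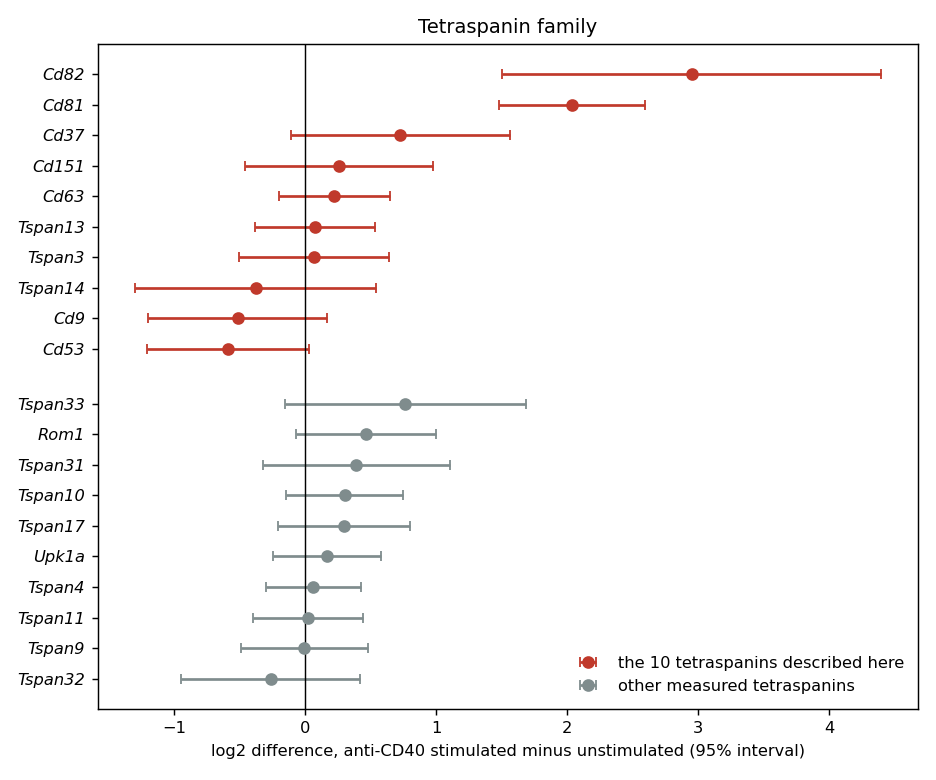
Log2 difference, anti-CD40 stimulated minus unstimulated (horizontal axis), with its 95% interval from the limma fit, for the 10 tetraspanins described here (red) and the other 10 measured tetraspanins (grey), n = 3 arrays each. Cd82 at 2.95 and Cd81 at 2.04 lie right of the rest, all of which have intervals that hold 0.

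The members also differed in how far arrays of the same group lay apart, a measure that does not use the difference between groups. The pooled SD within groups was 0.99 log2 units for Cd82, at the 98.9th percentile of all genes, and 0.31 for Cd81, at the 56.7th percentile. The smallest was that of Cd63, 0.18, at the 22.8th percentile, followed by Tspan13 with 0.21. The median over all genes was 0.28. These deviations went with the array number: replicate 1 lay above its group mean for 8 of the 10 members in stimulated cells and for 8 of 10 in unstimulated cells, while replicate 2 lay below it for 7 and 9 of 10. Over all genes there was little such lean: 49.1% lay above the group mean in stimulated replicate 1 and 53.4% in unstimulated replicate 1, against 48.6% and 45.2% in the arrays numbered 2. It was present in brighter genes: among genes with means above the median of all genes, 66.4% lay above the group mean in stimulated replicate 1 and 67.3% in unstimulated replicate 1, against 32.1% and 33.7% in the arrays numbered 2. The interquartile range of log2 intensities was also wider in the arrays numbered 1 (2.40 stimulated, 2.27 unstimulated) than in those numbered 2 (1.87 and 1.86), and its part in the member values was not tested. Cd63 and Cd53 went against this lean, with replicate 1 below the group mean in both groups.

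**Figure D3:**
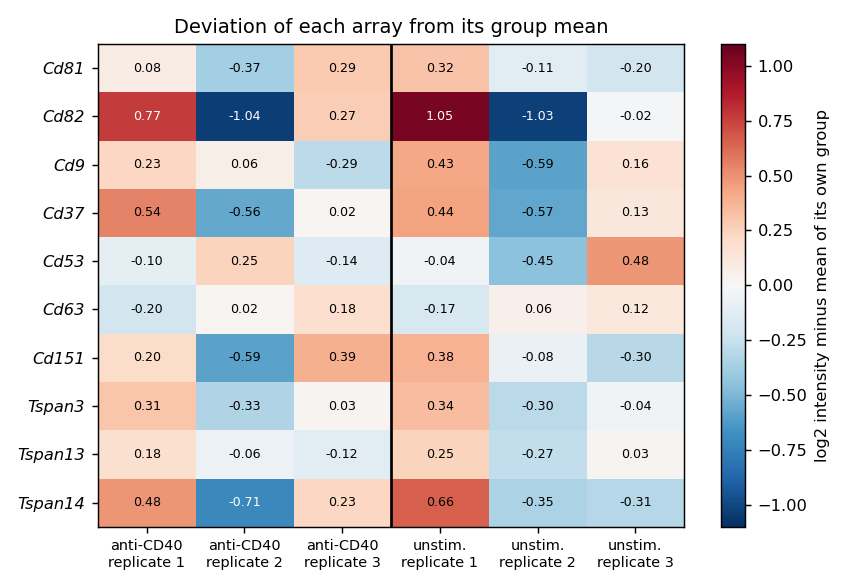
Log2 intensity of each array minus the mean of its own group (colour and number in each cell) for the 10 tetraspanins (rows) in the anti-CD40 stimulated arrays (left 3 columns) and the unstimulated arrays (right 3 columns). Cd82 has the widest deviations, from -1.04 to 1.05, with replicate 1 above and replicate 2 below in both groups.

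Likeness was measured as the root mean square difference between the 6 log2 values of 2 genes after each gene was centred on its own mean. It takes in the difference between groups on which Cd81 and Cd82 were chosen. Genes with a like difference therefore lie near them by construction. The nearest pair among the 10 members was Tspan3 and Tspan13 (0.15), and Cd82 and Cd53 were farthest apart (1.96). Cd81 was nearer to Cd37 (0.73) than to Cd82 (0.77), since Cd82 spread more. Over all named genes, the 3 nearest to Cd81 were the heat shock protein gene Hspa2 (0.21), the LIM domain protein gene Csrp2 (0.26) and Spred2, whose product restrains Ras to MAP kinase signalling (0.27). The 3 nearest to Cd82 were the Notch ligand gene Jag1 (0.40), Hspa2 (0.62) and the Rab GTPase gene Rab26 (0.73). Jag1 had log2 intensities of 9.50, 7.27 and 8.11 in stimulated arrays, against 6.76, 4.66 and 6.15 in unstimulated arrays. The order of arrays within each group was that of Cd82, but the likeness measure uses these same values, so nothing is read from it. Hspa2, Rab26, Cd37, Tspan3 and Tspan14 also had that order in both groups.

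The other tetraspanins had no member with a difference of the size of Cd81 or Cd82. Of 21 listed, 10 were in the table and the other 11 were not analysed here. In the fit over all genes 0 of the 10 passed in either direction, and 0 had an unadjusted p under 0.05. Their median log2 difference was 0.23, with 8 positive and 2 negative values, and it was 0.18 to 0.21 under the 3 rescalings. The range ran from -0.26 for Tspan32 to 0.77 for Tspan33, an ADAM10 partner like Tspan14. Rom1, known from photoreceptor discs, was the 1 gene of the list whose groups did not overlap (5.48, 5.66 and 6.25 in stimulated arrays, against 5.42, 5.33 and 5.25 in unstimulated arrays). Tspan32 is also the nearest protein-coding neighbour of Cd81 on one side in the RefSeq gene order, and its log2 difference of -0.26 ± 0.29 (SE) had the opposite sign to that of Cd81. Of the 20 places next to a member, 12 were taken by genes in the table, and the groups did not overlap for 2 of these, 1 in each direction, against 3.68% of all genes higher and 3.46% lower. These were Tead2 next to Cd37, with 7.43, 5.90 and 6.61 in stimulated arrays against 5.78, 5.27 and 5.27 in unstimulated arrays, and Sh2d4b next to Tspan14, with a log2 difference of -0.99 ± 0.18 (SE).

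Among proteins known to bind tetraspanins, the gene with the largest difference was Igsf8, which encodes EWI-2, a direct partner of CD81 and CD9. Igsf8 had log2 intensities of 6.45, 5.27 and 6.23 in stimulated arrays, against 5.04, 4.49 and 4.61 in unstimulated arrays. All stimulated arrays lay above all unstimulated ones, and the log2 difference was 1.27 ± 0.33 (SE; limma adjusted p = 0.99998), so it did not pass over all genes. Its sign held in all 17 refits, from 1.03 to 1.62, of which 1 called it. Of 20 measured genes in this list of 27 associated membrane proteins, 0 passed and 4 had an unadjusted p under 0.05, all higher in stimulated cells, against 2.07% of all genes in that direction. The 4 were Igsf8, Ezr, Clec7a and Epcam, whose groups did not overlap, against 3.68% of all genes higher. Groups lay apart in the lower direction for 1 other gene, against 3.46%. This list and the others were chosen with earlier results of these data known, so nothing is read from their counts. Ezr, which encodes the membrane to actin linker ezrin, differed by 0.77 ± 0.26 (SE). Clec7a, which encodes the beta-glucan receptor that CD37 holds at the surface of antigen-presenting cells, differed by 0.57 ± 0.24 (SE). Epcam encodes CD326, for which the sort was negative, is also a Langerhans cell and keratinocyte marker, and differed by 0.57 ± 0.19 (SE). Its mean intensity was at percentile 28.1 of all genes. The median of the list was 0.10, with 12 positive and 8 negative values, and 2 of its genes were in the table although 1 group averaged under an intensity of 20.

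Of 15 measured integrin chains, 0 passed, the median was 0.15 and the groups did not overlap for 2, against 3.68% of all genes higher. At an unadjusted p under 0.05, 1 chain was higher, against 2.07% of all genes. That chain was Itgb5, with 5.51, 5.12 and 5.46 in stimulated arrays, against 4.70, 4.76 and 4.83 in unstimulated arrays, a log2 difference of 0.60 ± 0.17 (SE). Its mean intensity was at percentile 29.4 of all genes. The groups of Itgav, the alpha chain that pairs with the product of Itgb5, did not overlap either (8.43, 7.23 and 7.19 in stimulated arrays, against 7.03, 6.63 and 6.76 in unstimulated arrays). Itgb1, the beta chain of the laminin-binding integrins that CD151 holds, differed by -0.15 ± 0.21 (SE). In the list of TspanC8 members, ADAM sheddases and their regulators, 9 were measured and 0 passed. The groups did not overlap for 1 of the 9, against 3.68% of all genes higher. At an unadjusted p under 0.05, 1 was higher, against 2.07% of all genes, the sheddase gene Adam17 (0.72 ± 0.29, SE). Adam10 had 6.66, 5.38 and 5.61 in stimulated arrays, against 6.11, 5.19 and 6.18 in unstimulated arrays, and its difference of 0.06 ± 0.40 (SE) changed sign in 7 of 17 refits. The groups of Timp1, which encodes an inhibitor of metalloproteases, barely cleared each other (4.65, 5.27 and 4.85 in stimulated arrays, against 4.64, 4.45 and 4.16 in unstimulated arrays), with a mean intensity at the 15.2th percentile of all genes.

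Of 27 measured genes for vesicle sorting through syntenin and the ESCRT machinery, 0 passed. At an unadjusted p under 0.05, 1 was higher, against 2.07% of all genes. The groups lay apart in that direction for 1, against 3.68%. The median was 0.02 and turned to between -0.13 and -0.03 under the 3 rescalings. Vps28, an ESCRT-I subunit, had 8.63, 9.10 and 9.26 in stimulated arrays, against 8.54, 8.31 and 8.56 in unstimulated arrays. Sdcbp, which encodes syntenin, the adaptor that binds the tail of CD63, differed by -0.28 ± 0.47 (SE). Of 16 enzymes of tetraspanin palmitoylation and glycosylation, 0 passed and 0 had an unadjusted p under 0.05 (median 0.07). Zdhhc6 was the 1 whose groups did not overlap (0.27 ± 0.17, SE), against 3.68% of all genes higher. Of 8 genes of MHC class II chains and their control, 0 passed. At an unadjusted p under 0.05, 1 was lower, against 1.42% of all genes: Cd74, with a difference of -0.78 ± 0.27 (SE). The groups did not overlap for 2 of the 8, against 3.68% of all genes higher. H2-Ab1 had 9.87, 9.86 and 10.71 in stimulated arrays, against 9.79, 9.65 and 9.80 in unstimulated arrays. Ciita, the gene of the MHC class II transactivator, also had groups that did not overlap (0.21 ± 0.16, SE). The mean intensity of Ciita was at percentile 13.2 of all genes. Cd40 itself had 10.08, 9.05 and 9.70 in stimulated arrays, against 8.91, 8.13 and 8.77 in unstimulated arrays, without overlap, although both groups were sorted as CD40+ (1.01 ± 0.32, SE).

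**Figure D4:**
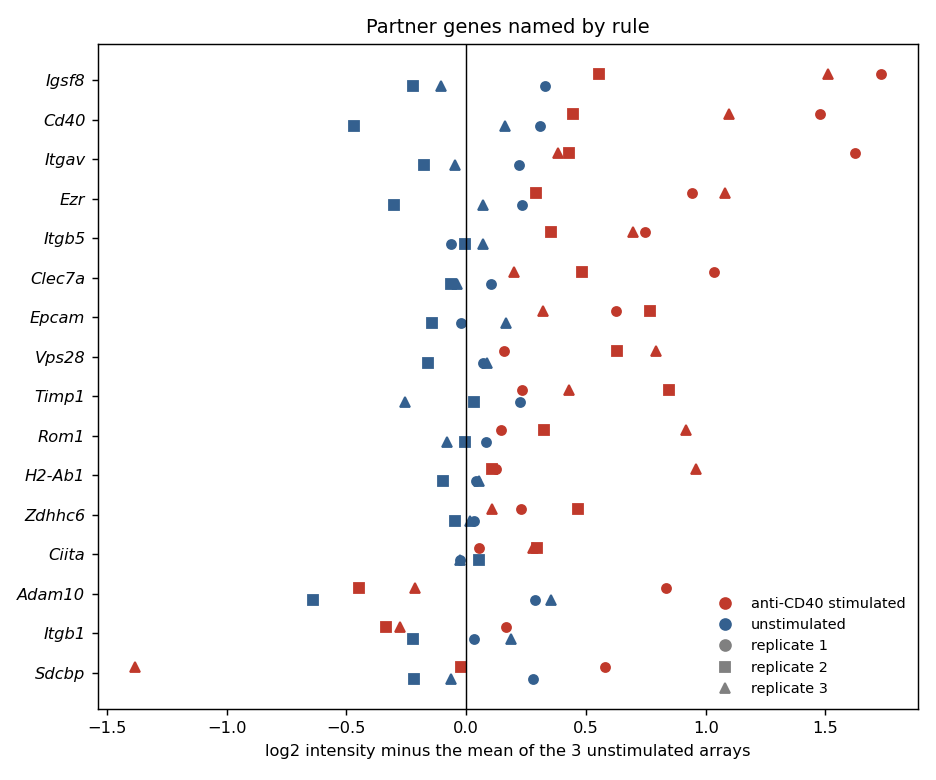
Log2 intensity of each array minus the mean of the 3 unstimulated arrays (horizontal axis) for partner genes of tetraspanins and Cd40 (rows), with anti-CD40 stimulated arrays in red above unstimulated arrays in blue and marker shapes for the replicate number. Igsf8 has the largest mean difference, 1.27, and the groups overlap for Adam10, Itgb1 and Sdcbp.

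Tetraspanins are shared with other leukocytes, so markers of such cells were read on the same arrays. Fewer cells of a type and less RNA per cell cannot be told apart in such bulk samples. Over all genes, the groups did not overlap for 3.68% higher and 3.46% lower. At an unadjusted p under 0.05, 2.07% of all genes were higher and 1.42% lower. Of 8 T cell markers, 5 were measured and all 5 had positive differences (median 0.43), with groups that did not overlap for Cd3e (0.20 ± 0.16, SE), and their summed intensity was 158 to 298 in stimulated arrays, against 137 to 228 in unstimulated arrays. Of 8 B cell markers, 4 were measured, with a median of -0.08 and sums of 114 to 177 in stimulated arrays, against 119 to 196 in unstimulated arrays. The part of either in the values of Cd81 and Cd82 was not tested. Platelet markers (3 measured, median -0.12), keratinocyte and Langerhans cell markers (5, -0.05) and fibroblast and endothelial markers (4, -0.16) also had 0 members past the threshold. The same held for plasmacytoid dendritic cell markers (4, 0.002), the macrophage marker Csf1r (-0.12) and the neutrophil marker S100a9 (-0.16). Groups lay apart for the platelet marker Gp9 (-0.12 ± 0.15, SE). Among the keratinocyte and Langerhans cell markers, 4 had negative differences. Epcam was higher (0.57 ± 0.19, SE), with groups apart and an unadjusted limma p under 0.05. Of 10 cDC1 markers, 9 were measured, 0 passed and the median was 0.18, with sums of 6066 to 10620 in stimulated arrays, against 6073 to 10181 in unstimulated arrays. The 9 went in both directions, 6 positive and 3 negative, and 1 was lower at an unadjusted p under 0.05. That was Cd24a, which averaged 10.78 in stimulated arrays and 11.26 in unstimulated arrays without overlap, while Cadm1 averaged 7.79 in stimulated arrays and 7.43 in unstimulated arrays, also without overlap. The cDC1 transcription factor genes Irf8 and Batf3 averaged 11.64 and 9.76 in stimulated arrays, against 11.00 and 9.35 in unstimulated arrays. Flt3 and Clec9a averaged 10.64 and 6.41 in stimulated arrays, against 10.95 and 6.67 in unstimulated arrays. The sort marker Xcr1 was dim, at 4.67 in stimulated arrays and 4.44 in unstimulated arrays.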

How the data were processed

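Biotinylated cDNA from sorted cells was hybridised to Affymetrix arrays, 1 per sample. RMA in Affymetrix Expression Console made the values, per the submitters' processing notes, with versions not given in the sources used here. Linear intensity values were deposited for 17551 probe sets (6.97 to 13701). In each probe set at least 1 group had a geometric mean of 20.001 or more, as a filter at 20 would leave, and all 10 members exceeded it in both groups. The log2 of each deposited intensity was taken. Probe sets with 1 symbol (13963) were reduced to 12780 genes by the highest mean over the 6 arrays. Stimulated minus unstimulated was fitted with limma 3.58.1 (R 4.3.3, lmFit and eBayes, no covariate, two-sided) with Benjamini-Hochberg adjustment over all genes, and the procedure was tested on simulated data. Refits used other variance models, filters, scalings, array weights, a replicate block and fewer arrays. Other variance models, gene filters and the block leave the difference of a gene unchanged, so no sign could change there. Background signal was not analysed here, and the number of arrays limits precision. The members and gene lists were chosen with earlier results of these data known. Named are all members, list genes called by the fit, up to 4 per list with the largest differences among those without overlap, 5 set partner genes (Adam10, Itgb1, Igsf8, Sdcbp and Cd40) and the 3 genes most like Cd81 and Cd82. Tspan33, Tspan32, Adam17, Tead2, Sh2d4b, Cd74, Irf8, Batf3, Flt3, Clec9a, Xcr1, Csf1r and S100a9 were named after their values were seen. No protein sequences were used here, and 1 further gene list is not reported here. Plots used matplotlib 3.10.9 (Python 3.11.15).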

Additional observations from a re-analysis of the deposited data

How the results depend on the processing

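With all genes in the fit, 2 genes were called higher in stimulated cells and 0 lower. Quantile normalisation once more gave 5 higher and 1 lower, centring on medians 3 and 1, array weights 28 and 18, scaling to 1 median and spread 0 and 0, and a test without shared variance 0 and 0. Leaving out 1 array gave 0 to 0 genes in each direction, and leaving out both arrays of a number, an alternative added after seeing the data, gave 0 and 0. The replicate block gave 30 higher and 8 lower. The labels do not say that the numbers pair the samples, so the main fit did not take them as pairs. Deviations of same-numbered arrays correlated across genes at 0.73, 0.59 and 0.06. Each stimulated array correlated best with the unstimulated array of its own number, whereas unstimulated replicate 3 correlated best with stimulated replicate 2 (0.19). Whether the numbers are pairs was not settled, and the calls under the block depend on it. Cd81 passed in 4 of 18 refits (block, array weights, quantile normalisation and centring) and Cd82 in 2 (block and array weights), and neither changed sign. The median of the 10 members ran from 0.07 to 0.22 when 1 array was left out. Cd81, Cd82, Cd37, Cd9, Cd53 and Tspan14 kept their sign in every refit, while Cd63 and Cd151 changed it in 1, Tspan3 in 4 and Tspan13 in 5. Tspan14 shrank to -0.007 under array weights. Refits that changed only the variance model, gene filter, probe set rule or replicate block could not change a member's sign. The cause of these changes was not tested.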
